A study of Mus musculus with 8 samples.

Results

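Brush border peptidases are the enzymes that finish protein digestion at the apical surface of enterocytes. They were followed here through 9 genes, Mme, Mep1a, Mep1b, Anpep, Enpep, Xpnpep2, Dpp4, Ace and Ggt1, which are 9 of the 54532 genes in the count table, and each was found there by its Ensembl identifier. The libraries came from intestinal epithelial cells of lactating C57BL/6J mice on lactation day 5, with 4 libraries labelled WT and 4 labelled Rank-knockout. Rank (Tnfrsf11a), the receptor activator of NF-κB, was deleted with floxed Rank alleles and a Cre under the Villin1 promoter, which acts in the epithelium and not in the other cells of the gut wall. Per the study's methods the controls were female littermates, but which floxed or Cre alleles each control carried and the stretch of intestine are not given in the sources used here, and for age the methods give only a wide range over all mice of the study. The labels give each library a replicate number from 1 to 4 but do not say that replicates are separate animals, so p-values measure the spread between these libraries, which may in part be technical.

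The brush border carries many hydrolases as membrane-bound proteins whose active site faces the gut lumen. Endopeptidases cut peptides internally, aminopeptidases remove residues from the amino terminus, and dipeptidyl peptidases release dipeptides, so that the products can enter the cell through the peptide carrier and the amino acid carriers. The same enzymes also act on hormones such as angiotensins, incretins and tachykinins, and their messenger RNAs are known to increase as enterocytes leave the crypt and move up the villus.

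Most of these enzymes hold a zinc ion in the active site by a short signature of histidine, glutamate, any residue, any residue and histidine. In the coding sequences of GENCODE M21 (GRCm38), an in-frame run of a histidine codon (CAC or CAT), a glutamate codon (GAA or GAG), 2 codons of any kind and a histidine codon was found in 6 of the 9 genes, against 3.22% of the 21747 protein-coding genes searched. It was absent from Dpp4 and Ggt1, which use other catalytic residues, and from Xpnpep2, a metallopeptidase of another fold. It is printed for 5 of the 6 genes because it is the part of the active site that these members of different peptidase families have in common, on the sense strand with 2 codons before it and 4 codons after it, and with the histidine and glutamate codons in capitals.
Mme: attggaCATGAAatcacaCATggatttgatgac
Mep1a: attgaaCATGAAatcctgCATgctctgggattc
Anpep: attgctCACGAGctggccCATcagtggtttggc
Enpep: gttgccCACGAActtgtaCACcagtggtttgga
Ace, first site: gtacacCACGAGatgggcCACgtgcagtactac
Ace, last site: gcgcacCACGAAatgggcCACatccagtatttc

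All of these lie in coding exons. The Mme site is in exon 18 of 23 (chr3:63362015-63362047, plus strand), and the Mep1a site is in exon 7 of 14 (chr17:43491647-43491679, minus strand). The Anpep site (chr7:79838993-79839186, minus strand) and the Enpep site (chr3:129309127-129309792, minus strand) are each joined from exons 5 and 6 of 20, so their coordinates span an intron. Ace was the only member with more than 1 site, and carried 2 of them, in exon 8 (chr11:105972904-105972936, plus strand) and exon 20 (chr11:105985088-105985120, plus strand) of 25. Its coding sequence of 1312 codons was the longest of the 9, and that of Ggt1, with 568 codons, the shortest.

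To ask how loss of RANK bears on the digestive surface in lactation, reads at the 3′ end of polyadenylated RNA were compared between the genotypes. All 9 peptidase genes were lower in Rank-knockout libraries (edgeR quasi-likelihood test with Benjamini-Hochberg adjustment over 9855 tested genes, adjusted p from 9.88e-05 to 0.0373), and none was higher. Of all tested genes, 14.6% were called lower, and the members made up 9 of those 1438 genes. With libraries scaled by their totals, 859 genes were lower and 2566 higher, in place of 1438 and 1555, and 8 members were lower. Levels are given as CPM, the counts of a gene per 1000000 counts of a library whose total was scaled by edgeR's TMM method. Summed over the 9 genes, WT replicates 1 to 4 had 8507, 9229, 8812 and 10145 CPM, and Rank-knockout replicates 1 to 4 had 3496, 4536, 4025 and 4325. The lowest WT library therefore stood well above the highest Rank-knockout library. The median log2 fold change, Rank-knockout minus WT, was -1.15 over the 9 genes and 0.02 over all tested genes.

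**Figure D1:**
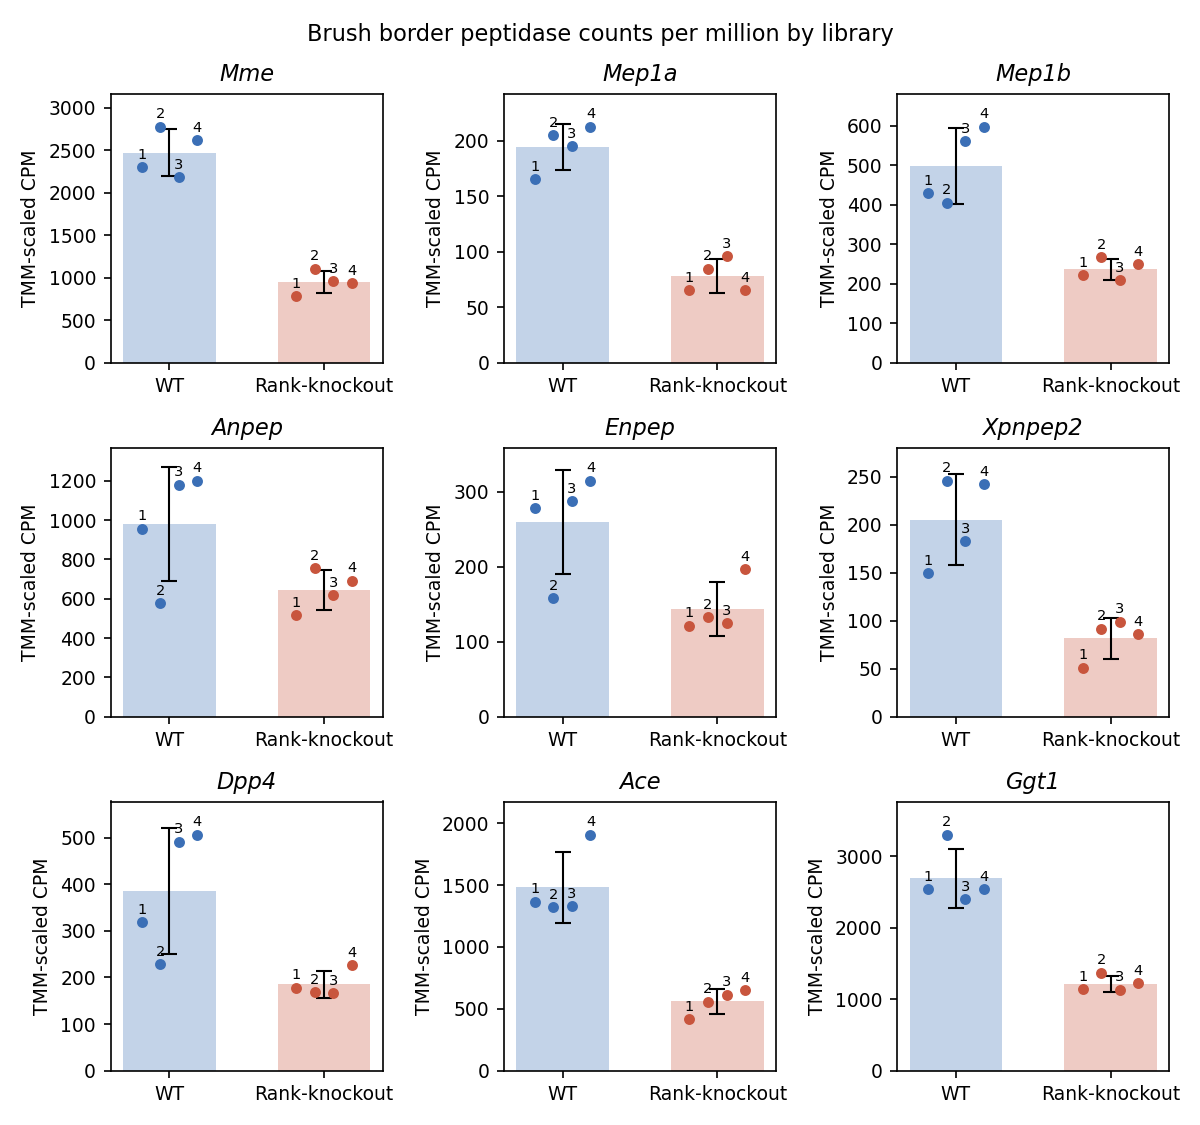
TMM-scaled CPM (vertical axes, starting at 0) of the 9 peptidase genes in WT and Rank-knockout libraries. Points are single libraries marked with their replicate number, bars are means and error bars are SDs (n = 4 per genotype); the points of the genotypes overlap for Anpep and Enpep and are separate for the other 7 genes.

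Total counts ran from 1530781 to 4335653 per library, and each member had at least 214 counts in every library. The targeted gene Tnfrsf11a averaged 60.7 ± 17.7 CPM over WT and 38.0 ± 8.64 CPM over Rank-knockout libraries (SD, n = 4 each) with overlapping ranges and was called lower (log2 fold change -0.67, SE 0.221, adjusted p = 0.0321 by edgeR), but tags at its 3′ end can lie outside the floxed exons, so its level checks no label. The 7 pan-epithelial markers summed to between 9440 and 10746 CPM in WT and between 8355 and 10667 CPM in Rank-knockout libraries, but they did not move as a block, since Krt18 (log2 fold change 0.41) and Krt19 (0.65) were called higher, Epcam (-0.45) lower and the other 4 were not called. Markers of stromal, endothelial, red blood and pancreatic acinar cells each summed to at most 16.3 CPM in any library and the 8 myeloid markers to at most 28.1 CPM, with Lum, Cdh5 and Prss1 at 0 in all libraries. The 10 T cell markers summed to 237 to 355 CPM in WT and 160 to 268 CPM in Rank-knockout, and the 8 B and plasma cell markers to 56.7 to 156 and 9.89 to 53.7 CPM. None of the 6 tested T cell markers was called, and of the B and plasma cell markers the immunoglobulin gene Igkc was called lower (log2 fold change -1.90, adjusted p = 0.00908 by edgeR), Igha (-1.49) did not pass and Cd79a was at 0 in all libraries. The part of these cells in the peptidase result was not tested. The 14 markers of cycling crypt cells, by contrast, summed to 568 to 886 CPM in WT and 1454 to 2307 CPM in Rank-knockout, and all 14 were called higher. Their part in the peptidase result was not tested, and in bulk RNA fewer mature enterocytes and less peptidase RNA in each of them cannot be told apart.

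Among the endopeptidases, Mme, Mep1a and Mep1b all fell. Mme encodes neprilysin, a broad endopeptidase that cuts on the amino side of hydrophobic residues and degrades many peptide hormones. Mme (ENSMUSG00000027820, chromosome 3, 63241537 to 63386030 in GRCm38) was at 2302, 2781, 2186 and 2623 CPM in WT replicates 1 to 4 and at 786, 1108, 963 and 935 CPM in Rank-knockout replicates 1 to 4. Every WT library stood far above every Rank-knockout library. This gave a log2 fold change of -1.38 with an SE of 0.154 (adjusted p = 9.88e-05 by edgeR), or 38.3% of the WT level.

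Mep1a and Mep1b encode the α and β subunits of meprin, an astacin-type endopeptidase that is very abundant in the rodent brush border. Mep1a (ENSMUSG00000023914, chromosome 17, 43474324 to 43502812) was at 166, 206, 195 and 213 CPM in WT and at 65.4, 84.8, 96.2 and 65.6 CPM in Rank-knockout replicates 1 to 4. No Rank-knockout library came near the WT range, and the log2 fold change was -1.33 with an SE of 0.158 (adjusted p = 0.000132 by edgeR). Mep1b (ENSMUSG00000024313, chromosome 18, 21061923 to 21100199) was at 429, 405, 561 and 598 CPM in WT and at 222, 268, 209 and 249 CPM in Rank-knockout. Its ranges were also separate, and the log2 fold change was -1.07 with an SE of 0.158 (adjusted p = 0.00032 by edgeR). Mep1b had more reads than Mep1a in every library.

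Whether the meprin subunits changed by unequal amounts was asked within each library, where scaling has no part. The log2 ratio of Mep1a to Mep1b counts averaged -1.34 ± 0.248 in the WT libraries and -1.61 ± 0.349 in the Rank-knockout libraries (SD, n = 4 each). The difference of -0.27 did not pass (two-sided exact permutation test over 70 assignments, p = 0.257, 0.386 after adjustment over 3 ratios). The smallest p that 70 assignments can give is 0.0286. A single ratio at that floor would not pass 0.05 after adjustment over 3, whatever its size. Without Rank-knockout replicate 3, the Rank-knockout library with the ratio nearest to 0, the difference was -0.44 (exact permutation p = 0.0286, unadjusted). That p is the smallest such a design can give. This leave-out is reported because it moved the result, and no conclusion is drawn from it.

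The aminopeptidases Anpep, Enpep and Xpnpep2 fell as well, and the log2 fold changes of Anpep and Enpep were the nearest to 0 of the 9 genes. Anpep encodes aminopeptidase N, which releases neutral residues and is a major aminopeptidase of the small intestine. Anpep (ENSMUSG00000039062, chromosome 7, 79821803 to 79861059) was at 956, 579, 1180 and 1201 CPM in WT and at 516, 754, 619 and 691 CPM in Rank-knockout replicates 1 to 4. WT replicate 2 lay among the Rank-knockout libraries, below 3 of them. The log2 fold change was -0.60 with an SE of 0.205 (adjusted p = 0.0373 by edgeR). This call was the least firm of the 9, since the adjusted p rose to 0.132 when libraries were scaled by their totals, at a log2 fold change of -0.41, and the call was lost in 9 of 17 alternative settings. The call was lost when any of WT replicates 1, 3 and 4 and Rank-knockout replicates 1 and 3 was left out (adjusted p from 0.0623 to 0.111), whereas without WT replicate 2 the log2 fold change was -0.79 (edgeR adjusted p = 0.00146). A short unclassified gene on the same strand, Gm44974, lies inside Anpep and took 1099 reads over the 8 libraries, so reads where the genes overlap may be missing from Anpep.

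Enpep encodes aminopeptidase A, which removes acidic residues and converts angiotensin II to angiotensin III. Enpep (ENSMUSG00000028024, chromosome 3, 129269175 to 129332720) was at 278, 158, 288 and 315 CPM in WT and at 121, 132, 125 and 197 CPM in Rank-knockout replicates 1 to 4. WT replicate 2 was again the lowest WT library, and Rank-knockout replicate 4 stood above it. The log2 fold change was -0.84 with an SE of 0.212 (adjusted p = 0.00842 by edgeR), and -1.03 without WT replicate 2.

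Anpep and Enpep belong to the same peptidase family, so their ratio was compared in the same way as that of the meprins. The log2 ratio of Anpep to Enpep counts averaged 1.90 ± 0.107 in the WT libraries and 2.18 ± 0.299 in the Rank-knockout libraries (SD, n = 4 each). The difference of 0.28 did not pass the two-sided exact permutation test (p = 0.171, 0.386 after adjustment over 3 ratios). It was 0.40 when Rank-knockout replicate 4, the Rank-knockout library with the lowest ratio, was left out. The exact permutation p of 0.0286 is unadjusted and the smallest that design can give. This leave-out too is reported because it moved the result, and no conclusion is drawn from it.

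Xpnpep2 encodes the membrane-bound aminopeptidase P, which removes a residue in front of proline. Xpnpep2 (ENSMUSG00000037005, chromosome X, 48108725 to 48136981) was at 149, 246, 183 and 242 CPM in WT and at 50.9, 91.6, 98.9 and 85.7 CPM in Rank-knockout replicates 1 to 4. The genotypes did not overlap, although the WT libraries spread over 22.9% of their mean (coefficient of variation). The log2 fold change was -1.34 with an SE of 0.210 (adjusted p = 0.000552 by edgeR).

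The dipeptide-releasing enzymes Dpp4 and Ace both fell. Dpp4 encodes dipeptidyl peptidase 4, a serine peptidase that cuts after proline or alanine and inactivates incretins. Dpp4 (ENSMUSG00000035000, chromosome 2, 62330073 to 62412231) was at 319, 228, 491 and 507 CPM in WT and at 178, 169, 166 and 227 CPM in Rank-knockout replicates 1 to 4. The ranges were separate by the narrowest of margins, since WT replicate 2 and Rank-knockout replicate 4 almost touched. The log2 fold change was -1.06 with an SE of 0.222 (adjusted p = 0.00328 by edgeR), and -1.25 without WT replicate 2.

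Ace encodes angiotensin-converting enzyme, a dipeptidyl carboxypeptidase that in its somatic form carries a pair of catalytic domains, each with a zinc site as printed above. Ace (ENSMUSG00000020681, chromosome 11, 105967945 to 105989964) was at 1367, 1320, 1328 and 1908 CPM in WT and at 418, 558, 613 and 651 CPM in Rank-knockout replicates 1 to 4. WT replicate 4 was high and Rank-knockout replicate 1 low, and the genotypes were far apart. The log2 fold change was -1.40 with an SE of 0.175 (adjusted p = 0.00014 by edgeR), the most negative of the 9 genes but within 1 SE of that of Mme, and Ace stood at 37.8% of its WT level.

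Ggt1 encodes γ-glutamyltransferase 1, which removes the γ-glutamyl group from glutathione outside the cell. Ggt1 (ENSMUSG00000006345, chromosome 10, 75561604 to 75586200) was at 2542, 3307, 2400 and 2538 CPM in WT and at 1139, 1372, 1135 and 1225 CPM in Rank-knockout replicates 1 to 4. WT replicate 2 was the highest library and the Rank-knockout libraries lay close together, with a coefficient of variation of 9.09%. The log2 fold change was -1.15 with an SE of 0.152 (adjusted p = 0.000189 by edgeR).

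**Figure D2:**
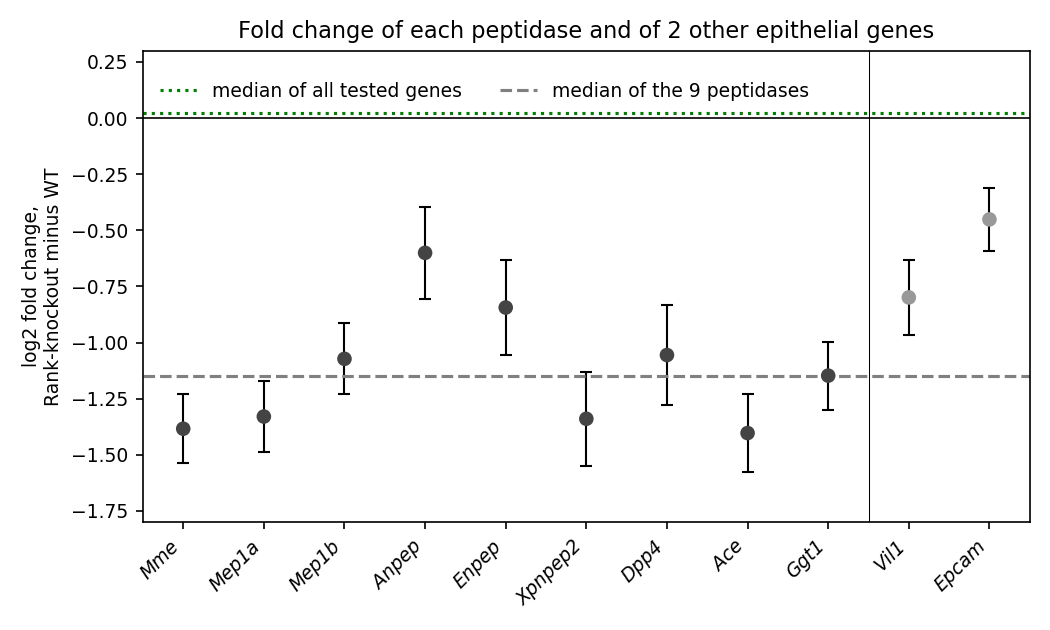
Log2 fold change (vertical axis, Rank-knockout minus WT, edgeR) of the 9 peptidase genes and, to the right of the vertical line, of Vil1 and Epcam; error bars are SEs, the dashed line is the median of the 9 genes and the dotted line the median of all tested genes. The 9 values run from -1.40 for Ace to -0.60 for Anpep.

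Of the 9 genes, 7 were at least 2-fold lower as well as called, against 3.67% of all tested genes, and Anpep (1.52-fold) and Enpep (1.80-fold) were the exceptions. This count depended on the scaling. With library totals, Dpp4 (log2 fold change -0.86), Mep1b (-0.88) and Ggt1 (-0.95) also fell short of 2-fold. For 7 genes every Rank-knockout library lay below every WT library, against 14.3% of all tested genes, and again Anpep and Enpep were the exceptions. All members but Anpep were called lower in each of the 17 alternative settings.

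The order of the genes by level changed little between genotypes. Levels are CPM of 3′ tags, which do not scale with transcript length. In WT the means were 2697 ± 412 CPM for Ggt1, 2473 ± 276 for Mme, 1481 ± 286 for Ace and 979 ± 289 for Anpep, followed by 498 ± 95.4 for Mep1b and 386 ± 135 for Dpp4 (SD, n = 4 each). Enpep (260 ± 69.5 CPM), Xpnpep2 (205 ± 47.0 CPM) and Mep1a (195 ± 20.7 CPM) were the lowest. Only the steps from Mme to Ace and from Ace to Anpep were free of overlap between neighbouring genes. In Rank-knockout the means were 1218 ± 111 CPM for Ggt1, 948 ± 132 for Mme, 645 ± 102 for Anpep, 560 ± 102 for Ace, 237 ± 26.5 for Mep1b, 185 ± 28.3 for Dpp4, 144 ± 35.6 for Enpep, 81.8 ± 21.3 for Xpnpep2 and 78.0 ± 15.2 for Mep1a. Neighbours were free of overlap from Ggt1 to Mme, from Mme to Anpep, from Ace to Mep1b and from Enpep to Xpnpep2. Ace and Anpep thus changed places, with Ace higher than Anpep in each WT library and lower in each Rank-knockout library. This pair was picked after its values were seen and was not tested.

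Among the WT libraries, replicate 2 was low for some of the 9 genes and high for others. It had the lowest WT value of Anpep, Dpp4, Enpep, Mep1b and Ace and the highest WT value of Mme, Xpnpep2 and Ggt1. Relative to the mean of the other WT libraries on the log2 scale, it was at -0.93 for Anpep, -0.91 for Dpp4, -0.89 for Enpep, -0.37 for Mep1b and -0.20 for Ace. For Ggt1, Xpnpep2, Mme and Mep1a it was at 0.41, 0.39, 0.23 and 0.11. The same library had the deepest sequencing of the WT group, and the sum of 8 proximal small intestine markers was 4782 CPM in it against 6685, 7916 and 8267 CPM in WT replicates 1, 3 and 4. In Rank-knockout libraries this sum was 2890 to 5179 CPM, lowest in replicate 1 and highest in replicate 4. Fabp1, which was not called, made up most of it (3916 CPM on average in WT), and 2 of the 7 tested proximal markers, Lct (log2 fold change -1.35) and Adh6a (-0.87), were called lower. The 8 ileum markers summed to 625 to 668 CPM in WT and 281 to 560 CPM in Rank-knockout, with 1 of 4 tested genes called lower, Slc51b (log2 fold change -0.74). Slc51a, which was not called, made up most of this sum (456 CPM on average in WT and 325 CPM in Rank-knockout). The ileal bile acid binding protein Fabp6, too low to be tested, summed to 13 counts in the WT group and was higher, at 85, in the Rank-knockout group (1.25 ± 0.761 and 5.68 ± 2.87 CPM, SD, n = 4 each), and Fgf15 was at 0 in all libraries. The part of either marker list in the peptidase result was not tested. Without WT replicate 2 all 9 genes were still called lower.

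WT replicate 4 had the highest WT value of the remaining 6 genes, and Rank-knockout replicate 1 had the lowest Rank-knockout value of 6 genes. The latter library also had the highest sum of cycling crypt cell markers, at 2307 CPM, and the former the lowest, at 568 CPM.

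**Figure D3:**
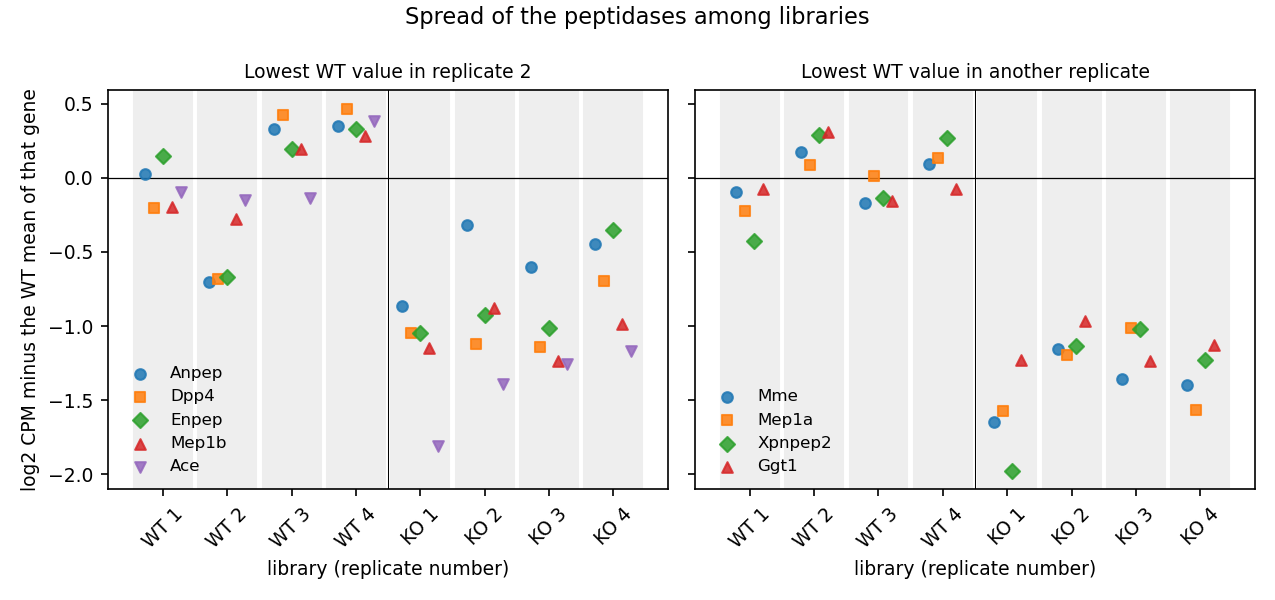
Log2 CPM of each peptidase gene in each library (horizontal axis, WT and Rank-knockout (KO) replicates 1 to 4) minus the mean of the 4 WT libraries for that gene. The left panel holds the 5 genes that were lowest in replicate 2 among WT libraries and the right panel the other 4, a split made after the values were seen.

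To relate the peptidases to the rest of the epithelium, their counts were set against 2 epithelial genes of the same library. Vil1 encodes villin, an actin-bundling protein of the microvillus, and its promoter also drives the Cre used here. Vil1 itself was lower in Rank-knockout, at a log2 fold change of -0.80 with an SE of 0.167 (adjusted p = 0.00253 by edgeR). Relative to Vil1, 1 member, Mme, was lower in every Rank-knockout library than in every WT library, against 0.386% of all tested genes, and its mean log2 ratio went from 1.68 ± 0.322 to 1.09 ± 0.156 (SD, n = 4 each). The mean log2 ratio to Vil1 differed by -0.61 for Ace, -0.54 for Xpnpep2, -0.53 for Mep1a, -0.34 for Ggt1, -0.26 for Mep1b, -0.20 for Dpp4 and -0.03 for Enpep, with overlapping libraries each time. For Anpep it differed by 0.24 in the other direction, also with overlap.

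Epcam encodes an adhesion protein found in all cells of the gut epithelium, and its log2 fold change was -0.45 with an SE of 0.141 (adjusted p = 0.0241 by edgeR). It was the only pan-epithelial marker of 7 called lower, and ratios to the others were not computed. Relative to Epcam, 6 members (Mme, Mep1a, Mep1b, Ace, Xpnpep2 and Ggt1) were lower in every Rank-knockout library than in every WT library, against 3.46% of all tested genes. Their mean log2 ratios differed by -0.61 for Mep1b to -0.96 for Ace. The differences were -0.55 for Dpp4, -0.39 for Enpep and -0.11 for Anpep, and the libraries overlapped.

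**Figure D4:**
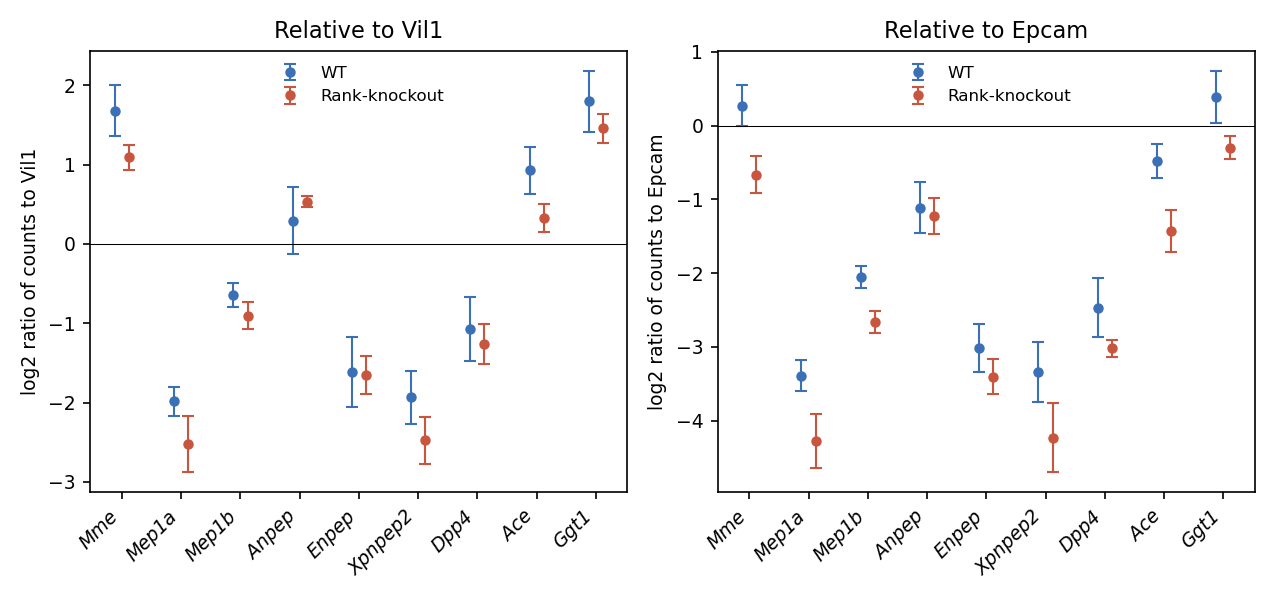
Mean log2 ratio of each peptidase gene's counts to those of Vil1 (left) and Epcam (right) in the same library, for WT and Rank-knockout; error bars are SDs (n = 4 per genotype). Relative to Epcam, 6 of the 9 genes had separate genotypes, and relative to Vil1 only Mme did.

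Promoter windows of 8 members, all but Mep1b, were found in the RefSeq table for GRCm38.p6, and the 250 bases before each start were searched on either strand for letters known from sites of enterocyte transcription factors. CAAAG, or CTTTG on the other strand, a core that HNF4 and TCF/LEF sites share, was found in 7 of the 8 genes, against 52.2% of all 27025 genes in the table. Some genes have several windows, and by window it was in 11 of 14 for the members against 48.6% of all 32851. AGATAA, or TTATCT, known as the site of GATA factors, was found in Dpp4 and Ggt1, against 11.4% of all genes (2 of 14 windows against 9.99%). GTTAAT, or ATTAAC, a part of the HNF1 site, and the CDX sites CAATAAA, or TTTATTG, and CCATAAA, or TTTATGG, were in none of the 8, against 7.49%, 4.89% and 2.83% of all genes. These matches are descriptions of the letters in the windows. The last 100 bases before the start are printed for Dpp4, Enpep and Xpnpep2, so that the matches can be seen in place. These are the members with a single listed start, a match within those bases and no annotated exon there. Any link of the matches to the fold changes was not tested. The windows are chr2:62412232-62412331 (minus strand) for Dpp4, chr3:129332750-129332849 (minus strand) for Enpep and chrX:48108625-48108724 (plus strand) for Xpnpep2, and capitals mark the matches.
Dpp4: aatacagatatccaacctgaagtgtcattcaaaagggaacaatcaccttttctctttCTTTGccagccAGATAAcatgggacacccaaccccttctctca
Enpep: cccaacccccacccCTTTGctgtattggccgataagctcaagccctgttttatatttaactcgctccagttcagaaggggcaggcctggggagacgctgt
Xpnpep2: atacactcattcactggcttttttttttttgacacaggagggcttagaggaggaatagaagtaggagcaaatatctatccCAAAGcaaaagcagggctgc

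Other genes of peptide digestion and uptake were counted over lists that do not hold the 9 members, except where stated. For comparison, 1438 (14.6%) of all 9855 tested genes were called lower and 1555 higher. Of the listed surface peptidases, 4 of 14 tested genes fell and none rose (1 with library totals), with a median log2 fold change of -0.21. Among them were the leukotriene- and dipeptide-cleaving membrane dipeptidase Dpep1 (-0.98), Naaladl1 (-1.30) and Tmprss15, the enteropeptidase that activates trypsinogen (-1.72). Tmprss2, Tmprss4, St14, Prss8, Cpm, Cpd, Lnpep, Ggt6, Adam10 and Adam17 did not pass the test, with log2 fold changes of -0.78 to 0.19. Peptidases of the same families as the members, most of them intracellular, gave 5 lower and 2 higher genes of 18 tested, with a median of 0.01. Among these Pepd (-0.91) and Bmp1 (-1.10) fell and Prep (0.74) and Metap2 (0.52) rose. The list of cytosolic peptidases and aminoacylases gave 6 lower and 2 higher genes of 19, with a median of 0.03. The peptidase gene Cndp2 (-1.07) and the aminoacylase gene Acy3 (-0.97) fell while Blmh (0.59) rose. The lists are not separate, since the family list and the cytosolic list share 8 tested genes (44.4% of the first and 42.1% of the second), and 2 of the falls, Pepd and Xpnpep1 (-0.55), and 1 rise, Prep, count in both. The family list also shares 3 of its tested genes with the surface list. In the family list, 3 genes fell in place of 5 when WT replicate 4 or Rank-knockout replicate 3 was left out, and likewise under scaling by totals, under sizes that left out the 50 most abundant genes and after thinning to the shallowest total, and 1 rose in place of 2 when any of WT replicates 1, 3 and 4 was left out. In the cytosolic list, 1 gene rose in place of 2 without WT replicate 4. The members' median of -1.15 lay below the medians of all these peptidase lists, a difference that was not tested.

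Brush border hydrolases that are not peptidases all fell, 9 of 9 tested, with a median log2 fold change of -1.35, among them the trehalase gene Treh (-1.39), the ceramidase gene Asah2 (-1.34) and the nucleotide pyrophosphatase gene Enpp3 (-1.55). Of the peptide and amino acid transporters, 11 of 13 fell and 2 rose, with a median of -0.98. The apical carriers Slc15a1 (-1.31), which takes up the dipeptides and tripeptides that the members release, and Slc6a19 (-1.25) fell, as did Slc43a2 (-1.10) and Slc16a10 (-1.12), whereas the acidic and neutral amino acid carriers Slc1a1 (0.75) and Slc1a5 (0.82) rose. Of the brush border frame, 13 of 14 genes fell, with a median of -0.85, led by Pdzk1 (-1.48), Cdhr2 (-1.35) and Cdhr5 (-1.09). The 9 members thus lay between the hydrolases and the transporters in their median. With library totals, 8 of the hydrolases, 9 of the transporters and 11 of the frame genes were called lower.

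**Figure D5:**
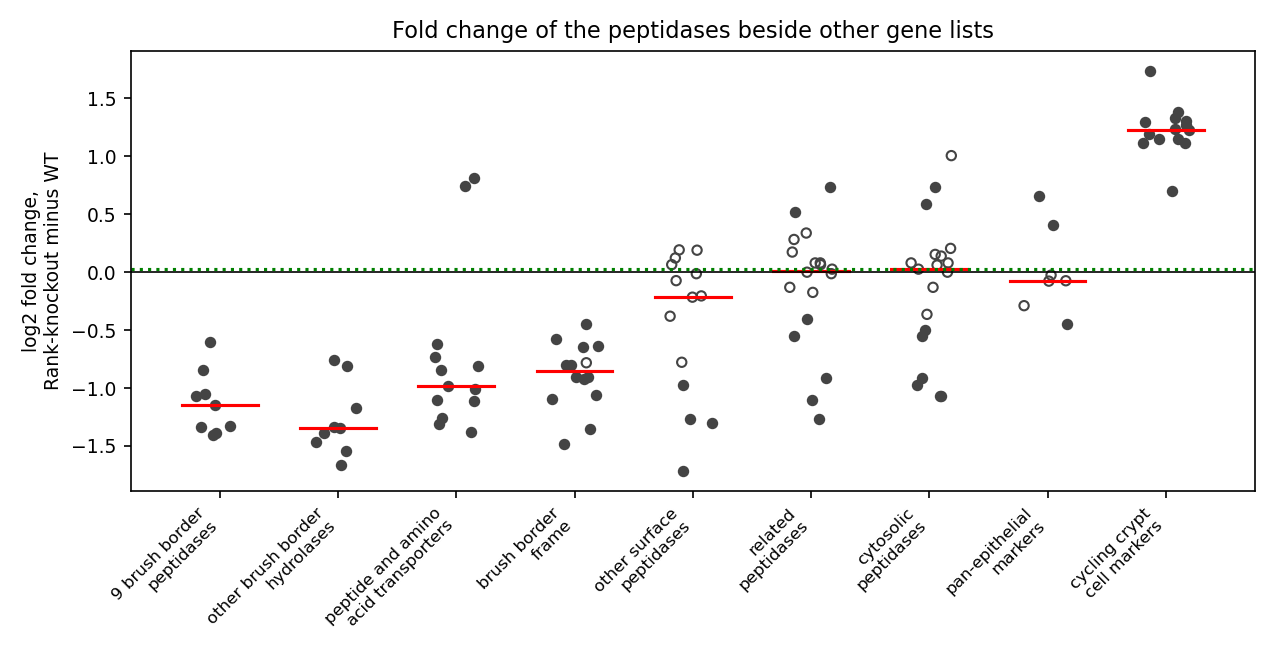
Log2 fold change (vertical axis, Rank-knockout minus WT, edgeR) of the 9 peptidase genes and of the tested genes of 8 other lists. Filled points passed the test and open points did not, red bars are medians, points are spread sideways at random, and the dotted line is the median of all tested genes; the median was -1.15 for the peptidases and 1.23 for the 14 cycling crypt cell markers.

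Several members act in 2 further pathways. In the angiotensin system, the members Ace, Mme, Anpep and Enpep and 1 of 2 tested non-members fell, Lnpep did not pass the test (0.07), and the receptor genes Agtr1a, Agtr1b, Agtr2 and Mas1 and the renin gene Ren1 had 0 counts in all libraries. Around Ggt1, in glutathione synthesis and breakdown, 4 of 9 other tested genes fell, among them Gclm (-1.02), Dpep1 and Oplah (-0.99), and Ggct (0.76) rose. Among genes of gut hormones, some of them substrates of Dpp4 and Mme, Nts (-1.37) fell and Tac1 (1.25) rose, and 5 of 7 did not pass the test. Both counts are near the shares over all tested genes, of which 14.6% were called lower and 1555 of 9855 higher. Without WT replicate 2 the falls in the glutathione list numbered 2 in place of 4, as they did after thinning to the shallowest total, and the hormone list had 0 falls in place of 1 and 2 rises in place of 1. The fall in the hormone list was likewise lost when WT replicate 4 or either of Rank-knockout replicates 1 and 2 was left out.

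Of 13 transcription factors known to control enterocyte genes, Hnf4g (-0.82), Klf4 (-1.21), Maf (-1.08) and Prdm1 (-1.18) fell, Cdx1 (0.81) rose and 8 did not pass the test (with library totals 3 rose). The genes whose centred log2 CPM profile over the 8 libraries was nearest to the mean profile of the members, by Euclidean distance among non-members with a mean of at least 5 CPM, were Crip1 (0.205), Cgref1 (0.220), Ephx2 (0.234), Slc43a2 (0.236) and Exoc3l4 (0.245). Of the members, Mep1b was the nearest to that mean profile (0.335) and Anpep the farthest (1.01).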

How the data were processed

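Epithelial RNA of 4 WT and 4 Rank-knockout samples was made into 3′ libraries with the Lexogen QuantSeq FWD kit and sequenced in single-read mode. The authors trimmed the reads (BBDuk), took out those matching ribosomal DNA, mitochondrial DNA, phiX or adapters (bowtie2), mapped the remainder to the GRCm38 assembly (STAR, Ensembl annotation) and assigned reads on the sense strand to genes (featureCounts). What they deposited is the table of raw counts, and no sources used here name molecular identifiers, so duplicates from PCR may be among the counts. Of 54532 identifiers, 54409 were found in GENCODE M21.

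Genotypes were compared by edgeR 4.0.16 in R 4.3.3 (filterByExpr, TMM scaling, robust quasi-likelihood F-test, genotype as the only term, Benjamini-Hochberg adjustment over 9855 genes, threshold 0.05). The SE comes from the F statistic. CPM are counts over TMM-scaled library sizes. Ratios within a library used counts plus 0.5. The groups share replicate numbers, for which the labels name no shared litter or day. Total counts were 1530781 to 4335653 per library.

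On simulated counts for 4 WT against 4 Rank-knockout libraries, edgeR recovered 2.53% of genes changed 1.5-fold (9718 genes), 68.21% of those changed 2-fold (9715 genes) and 98.43% of those changed 4-fold (9722 genes). Of the genes called, 0%, 5.67% and 5.05% were false. Only 191 to 198 tested genes were changed in each simulation. The data had 1438 lower and 1555 higher genes called, so these rates do not carry over to them. The members, the lists and the alternatives (RLE size factors, library totals, sizes leaving out the 50 most abundant genes, no filter, a mean of at least 5 CPM, DESeq2 1.42.0, limma-voom with limma 3.58.1, a replicate block, each library left out) were chosen with earlier results of these data known, and thinning to the shallowest total was added after seeing the data. The text names the 9 members, Tnfrsf11a, Vil1, Epcam, up to 3 non-members with the smallest p in each direction from each list, listed surface peptidases of at least 5 CPM, and the 5 nearest profiles; Slc15a1, Prdm1, Krt18, Krt19, Igkc, Igha, Fabp1, Lct, Adh6a, Slc51b, Slc51a, Fabp6, Xpnpep1, Gm44974 and genes at 0 were named after their values were seen. A gene that this rule selects, and the ratio that uses it, are not reported here. The stretches of sequence come from GENCODE M21 transcripts and the RefSeq promoter table.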

Additional observations from a re-analysis of the deposited data

Results flagged for a closer look

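In a group of 4, the highest or lowest library was listed where its gap to the nearest other library was too large a part of the group's range (Dixon test). Of 36 such groups 4 were listed, where chance gives 1.8. Enpep was at 197 CPM in Rank-knockout replicate 4, against 121 to 132 CPM in the other Rank-knockout libraries. Ace was at 1908 CPM in WT replicate 4, against 1320 to 1367 CPM in the other WT libraries. Ggt1 was at 3307 CPM in WT replicate 2, against 2400 to 2542 CPM in the other WT libraries. WT replicate 2 also had 4335653 total counts, against 1530781 to 1616024 in the other WT libraries.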

How the results depend on the processing

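Anpep was the only member whose call depended on the settings tried. Its log2 fold change was -0.41 (edgeR adjusted p = 0.132) with library totals, -0.47 (0.089) without the 50 most abundant genes in the library sizes, -0.56 (0.0608) with limma-voom, -0.57 (0.051) with a replicate block, and -0.79 to -0.50 with single libraries left out; the cause was not tested. The replicate block changed no other member's call. The labels do not say that its numbers pair samples, the correlation of same-numbered libraries' deviations from their group means ran from -0.14 to 0.32 with 2 of the 4 numbers correlating best with themselves, and the block gave 1602 lower and 1708 higher genes over all genes tested. In the ratios, Mep1a to Mep1b differed by -0.44 (exact p = 0.0286) without Rank-knockout replicate 3, in a range of -0.44 to -0.15, and Anpep to Enpep by 0.40 (exact p = 0.0286) without Rank-knockout replicate 4, in a range of 0.17 to 0.40. Both p-values are unadjusted and the smallest such a design can give. They were the only 2 of 30 alternative ratio results that passed 0.05. Over all genes tested, 859 were lower and 2566 higher with library totals, against 1438 and 1555, and this scaling moved the median log2 fold change by 0.20, while leaving out the 50 most abundant genes moved it by 0.13 and gave 1009 lower and 2173 higher genes. With single libraries left out, the higher genes numbered 1020 (without WT replicate 4) to 1723 and the lower genes 1097 to 1564. Of 340 list counts, 18 moved by more than 1.5 times. Depth limits genes with few reads more in WT, where the median total was lower; the members all had 214 counts or more in every library.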
